A study of Mus musculus with 8 samples.

Results

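The miR-181 family was followed as 5 mature miRNAs, mmu-miR-181a-5p, mmu-miR-181b-5p, mmu-miR-181c-5p, mmu-miR-181c-3p and mmu-miR-181d-5p (mmu, for mouse, is left out from here on), taken by name from a table of 1915 mature mouse miRNAs and read in all 8 small RNA libraries of the series. All 5 were among the 475 miRNAs abundant enough to be tested. The libraries come from mouse embryonic stem cells of 129/Ola background and form 4 groups of 2. Wild type (A and B) is E14, a pluripotent blastocyst-derived line. Ago2 knockout (lines 1 and 2) has lost AGO2, the Argonaute protein known for slicing target RNA. An inducible AGO1 line, named in the labels as a derivative of knockout line 1 and so also without AGO2, was grown without doxycycline (uninduced, A and B) or with 1 µg/mL doxycycline (induced, A and B), the inducer of its ectopic AGO1. Small RNA libraries do not measure the Ago2 or Ago1 transcripts, so the genotypes rest on the labels. Both letters of the AGO1 line carry 1 source name, the promoter of the transgene is not given in the sources used here, and nothing in the labels tells whether a letter stands for its own culture, so the p-values measure the spread between libraries, which may be technical.

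A miRNA hairpin is cut into a short duplex whose strands, the 5p and the 3p arm, can each be loaded into an Argonaute protein, while the strand that is not kept is degraded. The loaded arm finds target RNAs mainly through its seed, bases 2 to 8, so the arms of 1 hairpin address different targets. The miR-181 family is best known from developing lymphocytes, where miR-181a tunes antigen receptor signalling, and from the nervous system. A change in which arm of a hairpin prevails is called arm switching.

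The members from 5p arms, 4 in number, share 1 seed, and no other entry of the RefSeq miRNA table (GRCm38.p6) has it. They are shown with the seed in capitals, to let their near identity be seen, since the table counts them in separate rows.
miR-181a-5p: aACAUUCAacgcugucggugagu
miR-181b-5p: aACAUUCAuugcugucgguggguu
miR-181c-5p: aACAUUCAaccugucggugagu
miR-181d-5p: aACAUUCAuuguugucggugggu
The sequences of miR-181a-5p and miR-181c-5p are 1 edit (a changed, added or missing base) apart, those of miR-181b-5p and miR-181d-5p 2 edits, and every pair across these 2 kinds 4 or 5 edits. How reads that match more than 1 of them were assigned is not given in the sources used here, so the split of reads between the near-identical members is uncertain.

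The 3p arm of miR-181c has another seed, which in the RefSeq table it shares with miR-181a-1-3p alone. Both are shown because their sequences are 2 edits apart.
miR-181c-3p: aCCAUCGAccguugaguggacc
miR-181a-1-3p: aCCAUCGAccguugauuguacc
Both arms of miR-181c begin with A. They are 9 edits apart.

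In mouse GENCODE vM21 (GRCm38) the family has 6 genes on 3 chromosomes. Mir181c (chromosome 8, 84178873 to 84178961) and Mir181d (chromosome 8, 84178716 to 84178787) lie 85 bp apart on the minus strand in an intron of Nanos3, a germ cell gene of the same strand. miR-181a-5p and miR-181b-5p each have 2 genes with the same mature sequence. Mir181a-1 (chromosome 1, 137966455 to 137966541) and Mir181b-1 (chromosome 1, 137966639 to 137966718) overlap an exon of the transcript A430106G13Rik. Mir181a-2 (chromosome 2, 38852735 to 38852810) and Mir181b-2 (chromosome 2, 38853830 to 38853918) lie on the strand opposite to an intron of Nr6a1, which encodes an orphan nuclear receptor.

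Counts summed to 163467 to 1326638 per library, least in knockout 2 and uninduced B. Levels are given in CPM, the usual depth-scaled counts (here with each library total scaled by edgeR's TMM factor), and are relative to the other miRNAs of a library. Changes are edgeR log2 fold changes ± SE, and a call is an edgeR quasi-likelihood adjusted p (Benjamini-Hochberg over the 475 miRNAs) under 0.05. The stem cell label was checked with the 13 listed miRNAs of the clusters miR-290 and miR-302, known from pluripotent cells. All had counts in every library, and together they held 24.1 to 29.4% of counts. The largest part was miR-295-3p (148457 of 248306 in wild type A and 58709 of 105451 in knockout 1). Other members did not move together. In wild type A miR-293-3p had 15217 and miR-292a-3p 20666 counts, against 3285 and 12238 in knockout 1. The miR-302 members of the list had few counts and were uneven. miR-302d-3p had 26 and 24 counts in wild type (A, B), 91 and 8 in the knockout (lines 1, 2), 159 and 70 in uninduced (A, B), and 100 and 72 in induced (A, B). In knockout line 1 and the shallower line 2 miR-302a-3p had 40 and 2 counts and miR-302b-3p 20 and 5. Markers of other cell types were scarce. The 8 blood miRNAs, of which miR-223-3p and miR-451a had 0 counts throughout, held 0.169 to 0.191% in wild type, 0.653 to 0.794% in the knockout, 0.652 to 0.720% in the uninduced and 0.336 to 0.357% in the induced line. The 8 neural miRNAs held 0.176 to 0.196% in wild type and 0.106 to 0.150% in the other groups. The 6 fibroblast and smooth muscle miRNAs held 0.285 to 0.375% in wild type, 0.0526 to 0.0549% in the knockout, 0.0356 to 0.0420% in the uninduced and 0.168 to 0.181% in the induced line. In wild type nearly all of these counts were miR-143-3p (2648 of 2703 and 4101 of 4180). In the knockout it was a smaller part (141 of 197 and 69 of 86). miR-145a-5p did not share its course (wild type 17 and 29, the shallower knockout 17 and 9). The blood list was mixed too, with wild type counts of 48 and 42 for miR-155-5p against 6 and 6 in the knockout lines, and of 223 and 505 for miR-142a-5p against 677 and 646. The 4 muscle miRNAs and miR-122-5p of liver were at or near 0.

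miR-181c-5p dropped in every group without AGO2. It stood at 3099 and 3021 CPM in wild type (A, B), 529 and 604 CPM in the knockout (lines 1, 2), 513 and 552 CPM in the uninduced AGO1 line (A, B), and 512 and 541 CPM in the induced line (A, B). The 6 libraries without AGO2 lay close together, and none came near wild type. By the labels, all of them but knockout line 2 go back to knockout line 1. In the knockout against wild type the log2 fold change was -2.44 ± 0.19, a 5.41-fold drop (edgeR adjusted p = 4.86e-06). In such bulk libraries fewer cells with a miRNA and less of it per cell cannot be told apart. The same groups differed from wild type in the summed shares of the blood, neural and fibroblast lists given above, the last through miR-143-3p; their part in the result was not tested.

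miR-181c-3p, cut from the same hairpin, went the other way. Its levels were 1551 and 1373 CPM in wild type (A, B), 3059 and 2681 CPM in the knockout (lines 1, 2), 3267 and 2685 CPM in uninduced (A, B), and 3361 and 3221 CPM in induced (A, B). Every library without AGO2 was above both wild type libraries. In the knockout the rise was 0.97 ± 0.18 on the log2 scale, or 1.96-fold (edgeR adjusted p = 0.00165).

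**Figure D1:**
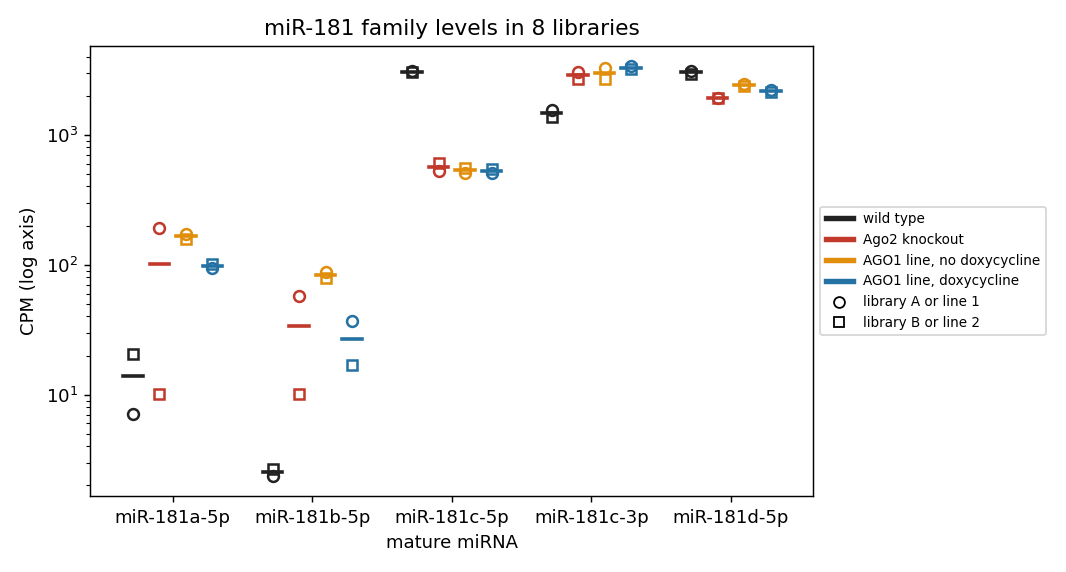
Levels of the 5 miR-181 miRNAs in CPM on a log axis, with 1 point per library and a bar at each group mean (n = 2). miR-181c-5p drops from 3021 and 3099 CPM in wild type to 512 to 604 CPM in the other 6 libraries while miR-181c-3p rises; for miR-181a-5p and miR-181b-5p knockout line 2 sits at 10.1 CPM, far below line 1.

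Put as an arm balance, the miR-181c hairpin gave mostly 5p reads in wild type and mostly 3p reads in every other library. The 5p arm made up 66.6% of the hairpin's 3919 reads in wild type A (95% Wilson interval 65.2 to 68.1%) and 68.8% of 4884 reads in wild type B (67.4 to 70.0%). It made up 14.7% of 1438 reads in knockout line 1 (13.0 to 16.7%) and 18.4% of 653 reads in line 2 (15.6 to 21.5%). In the AGO1 line the share was 13.6% of 2839 reads in uninduced A (12.4 to 14.9%) and 17.1% of 979 reads in uninduced B (14.8 to 19.5%). With doxycycline it was 13.2% of 4528 reads in A (12.3 to 14.2%) and 14.4% of 3775 reads in B (13.3 to 15.5%). The intervals describe counting error alone: without molecular identifiers, reads are not independent molecules. The group means were 67.7 ± 1.49% in wild type, 16.6 ± 2.57% in the knockout, 15.3 ± 2.47% in the uninduced and 13.8 ± 0.817% in the induced line (SD, n = 2 each).

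**Figure D2:**
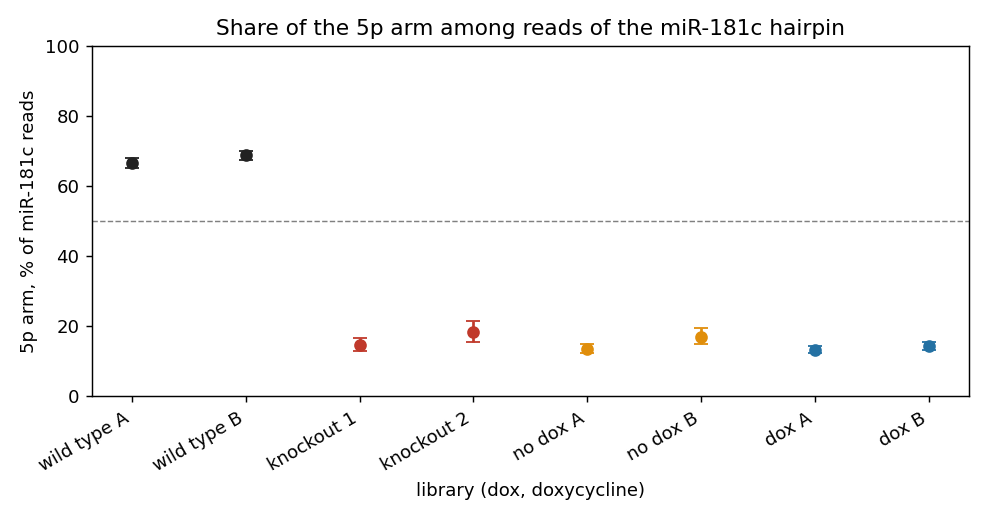
Percent of miR-181c hairpin reads that came from the 5p arm in each library, with 95% Wilson intervals and a dashed line at equal arms. Both wild type libraries sit above the line, at 66.6 and 68.8%, and the other 6 libraries lie between 13.2 and 18.4%.

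The ratio of 5p to 3p reads was tested in edgeR for every hairpin with both arms tested, 135 in all, with each library as its own term, so that depth and scaling cancel. In wild type the miR-181c ratio averaged 2.10 ± 0.143 5p reads per 3p read (SD, n = 2). In the knockout it was turned over, with 5.11 ± 0.948 3p reads per 5p read. The log2 ratio changed by -3.42 ± 0.23 in the knockout (10.7-fold; edgeR adjusted p = 1.72e-07 over 135 hairpins). Against wild type it also changed by -3.56 ± 0.23 in the uninduced line (edgeR adjusted p = 8.97e-08) and by -3.71 ± 0.22 in the induced line (edgeR adjusted p = 4.25e-08). These 3 comparisons share the wild type libraries, and the AGO1 line was made from knockout line 1, so they are not independent. No alternative setting and no left-out library ended any of the 3 calls.

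Arm balance moved in many hairpins at once. Between knockout and wild type 40.7% of the 135 hairpins were called, with 20.7% of the 135 moving towards the 3p arm, and the median log2 change was 0.0042. Against wild type 48.9% were called in the uninduced line (25.9% towards the 3p arm) and 45.9% in the induced line (23.7% towards the 3p arm), or 66 and 62 hairpins; without uninduced A the first count was 38 and without induced A the second was 39. Against that background the change of miR-181c was the largest fall among the 135, both in the knockout and in the induced line, and the second largest fall in the uninduced line. Among called hairpins with both arms at a mean of at least 20 CPM, the falls next in size in the knockout were those of miR-93 (-3.12 ± 0.45, edgeR adjusted p = 0.000131) and miR-20b (-2.84 ± 0.43, edgeR adjusted p = 0.000157), members of the miR-17 group. Both kept a large excess of 5p reads, at 98.2 and 98.9% for miR-93 and 90.6 and 94.1% for miR-20b in the knockout libraries. Their 3p reads were few: 9 and 8 in wild type (A, B) and 13 and 10 in the knockout (lines 1, 2) for miR-93. For miR-20b they were 14 and 10, and 19 and 14, in the same order. The mean behind the 20 CPM rule includes the knockout libraries, so the naming of both is not independent of the change. The largest rises among called hairpins of that level were those of miR-25 (3.39 ± 0.39, edgeR adjusted p = 2.11e-05), miR-27b (3.01 ± 0.33, edgeR adjusted p = 1.63e-05) and miR-19a (2.69 ± 0.45, edgeR adjusted p = 0.000325). In these the 3p arm still prevailed in the knockout, with 5p shares of 3.44 and 6.96% for miR-25, 3.76 and 7.55% for miR-27b and 14.4 and 31.4% for miR-19a.

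A prevailing arm that changed from 5p in both wild type libraries to 3p in both knockout libraries was found in 5 of the 135 hairpins, miR-181c, miR-30a, miR-30d, miR-32 and miR-467d. In all 5 the 3p arm also prevailed in all 4 AGO1 line libraries. All 5 were among the hairpins called in the knockout. The opposite exchange was seen in 3 hairpins, miR-124, miR-494 and miR-3072, the last not called (edgeR adjusted p = 0.0950). The 5 and the 3 were picked by this count after the values were seen, from the same reads that gave the calls. Their calls are therefore no separate support. The log2 change of the ratio in the other 4 that turned to 3p was -1.51 for miR-30a, -1.77 for miR-30d, -2.06 for miR-32 and -0.98 for miR-467d, against -3.42 for miR-181c.

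**Figure D3:**
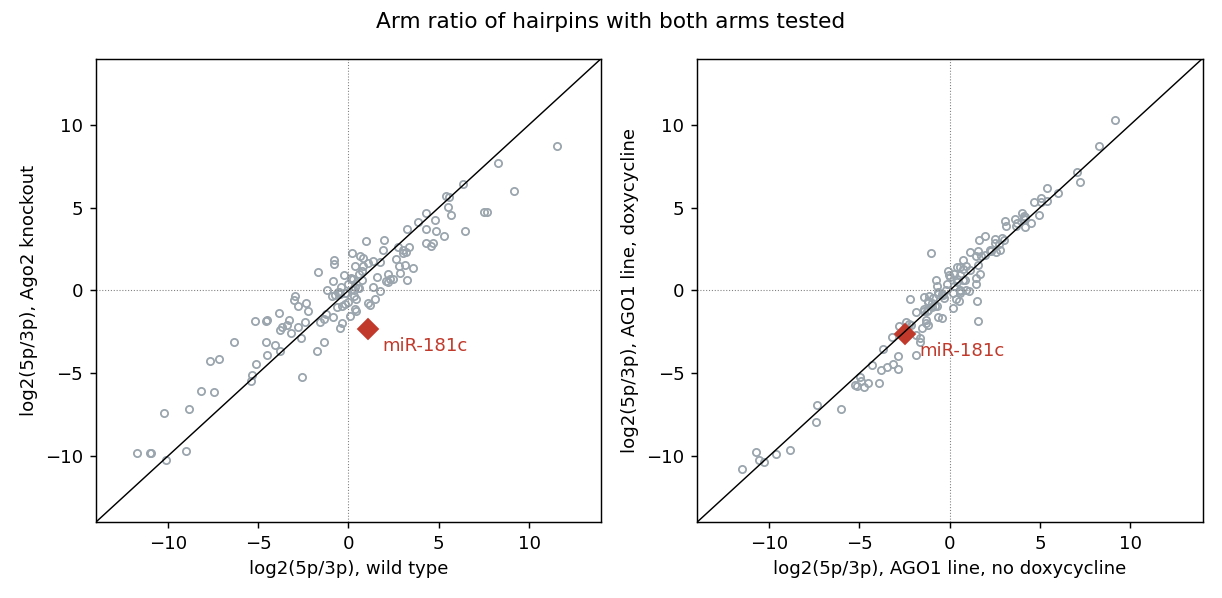
Mean log2 of 5p over 3p reads (1 count added to each arm) for 135 hairpins, 1 circle each, in knockout against wild type (left) and in the AGO1 line with against without doxycycline (right); the line marks equal ratios. miR-181c (diamond) is positive in wild type and negative in the knockout, far below the line on the left, and close to the line on the right.

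While the arms exchanged places, the summed output of the hairpin moved far less. The sum of both arms was 4650 and 4393 CPM in wild type (A, B), 3587 and 3285 CPM in the knockout (lines 1, 2), 3779 and 3237 CPM in uninduced (A, B), and 3873 and 3762 CPM in induced (A, B). Wild type was thus above every other library. With the arms of every hairpin added before the fit, a calculation chosen after the data were seen and given without a test, the log2 fold change in the knockout was -0.36 ± 0.16 with TMM factors and -0.09 ± 0.13 with library totals alone. In the uninduced line against wild type it was -0.32 ± 0.16 and -0.24 ± 0.13, and in the induced line -0.19 ± 0.16 and -0.32 ± 0.13, in the same order.

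miR-181d-5p, which lies beside miR-181c and has its seed, stood close to miR-181c-5p in wild type and was the most abundant 5p member elsewhere. It stood at 3122 and 2951 CPM in wild type (A, B), 1913 and 1932 CPM in the knockout (lines 1, 2), 2461 and 2371 CPM in uninduced (A, B), and 2216 and 2131 CPM in induced (A, B). All 6 libraries without AGO2 lay below both wild type libraries. The fall in the knockout was -0.66 ± 0.16 on the log2 scale, or 1.58-fold (edgeR adjusted p = 0.00723). It no longer passed when wild type A was left out (-0.44, edgeR adjusted p = 0.115), nor without induced A (0.0829) or induced B (0.0746), without the 2 shallowest libraries (0.0532) and without TMM factors (-0.35, 0.0630), which move the median of all miRNAs from -0.12 to 0.16.

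The balance between these neighbours was not the same with and without AGO2. Per read of miR-181c-5p there were 1.01 and 0.977 reads of miR-181d-5p in wild type (A, B) and 3.62 and 3.20 in the knockout (lines 1, 2). The ratio was 4.80 and 4.29 in uninduced (A, B) and 4.33 and 3.94 in induced (A, B). This ratio within a library does not depend on scaling and was not tested. The 3p arm of miR-181d stayed rare, with 30 counts over the 8 libraries and at most 8 in any one, too few for an arm ratio to be tested.

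miR-181a-5p and miR-181b-5p, the members with the fewest reads, were higher in knockout line 1 and in all AGO1 line libraries than in wild type, while knockout line 2 had only 2 counts of each. miR-181a-5p had 6 and 23 counts in wild type (A, B) (7.12 and 20.7 CPM), 77 and 2 in the knockout (lines 1, 2) (192 and 10.1 CPM), 129 and 48 in uninduced (A, B) (172 and 159 CPM), and 111 and 101 in induced (A, B) (94.9 and 101 CPM). Line 1 was near the level of the uninduced AGO1 line, which was made from it, and above that of the induced line. Line 2 was within the range of wild type. The ratio of line 1 to line 2 was 19.1 (95% exact counting interval 5.11 to 160), and that of line 2 to wild type 0.678 (0.0784 to 2.68).

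miR-181b-5p showed the same split. It had 2 and 3 counts in wild type (A, B) (2.37 and 2.70 CPM), 23 and 2 in the knockout (lines 1, 2) (57.4 and 10.1 CPM), 66 and 24 in uninduced (A, B) (87.9 and 79.4 CPM), and 43 and 17 in induced (A, B) (36.8 and 16.9 CPM). Line 1 was 5.70 times line 2 (interval 1.41 to 49.9), and line 2 was 3.93 times wild type (0.375 to 24.0), an interval that includes 1. The pair miR-181c-5p and miR-181d-5p did not split in this way, with ratios of line 1 to line 2 of 0.876 (0.697 to 1.11) and 0.991 (0.875 to 1.12).

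In the fit, miR-181a-5p rose by 2.95 ± 0.81 (edgeR adjusted p = 0.0116) and miR-181b-5p by 3.84 ± 0.82 (edgeR adjusted p = 0.00330) in the knockout against wild type. Both rows passed the filter on low counts through libraries without AGO2, where they were high: of the 2 wild type libraries 1 reached its level for miR-181a-5p and 0 for miR-181b-5p. A row as low in all groups as miR-181b-5p in wild type would not have been tested, so its calls against wild type are not independent of the filter. With no filter both were still called in the knockout, the uninduced and the induced line. The knockout calls rest on line 1. Without that library miR-181a-5p was at -0.51 (edgeR adjusted p = 0.677) and miR-181b-5p at 1.92 (edgeR adjusted p = 0.243). The call of miR-181a-5p also failed with wild type A left out (edgeR adjusted p = 0.0731), with only the 2 groups in the fit (0.0706) and with libraries thinned to the smallest (0.110). The share of blood miRNAs was 0.653 and 0.794% in knockout lines 1 and 2, with 0.169 to 0.191% in wild type. The counts of miR-302a-3p, miR-302b-3p and miR-302d-3p in the 2 lines are given above. The part of these miRNAs in the result was not tested.

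Of the 5 members 3 were thus called higher and 2 lower in the knockout, where 57.7% of all tested miRNAs were called, 25.5% higher and 32.2% lower (121 and 153, but 155 and 111 with library totals in place of TMM factors). The median log2 fold change was 0.97 over the members and -0.12 over all 475. With so many miRNAs called, a call as such sets no member apart.

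The uninduced AGO1 line against wild type showed the same directions for the 5 members, with the wild type libraries shared with the comparison above. miR-181c-5p was at -2.52 ± 0.19 (edgeR adjusted p = 3.24e-06) and miR-181c-3p at 1.03 ± 0.18 (edgeR adjusted p = 0.000976). miR-181a-5p rose by 3.51 ± 0.79 (edgeR adjusted p = 0.00350) and miR-181b-5p by 4.95 ± 0.71 (edgeR adjusted p = 0.000232). miR-181d-5p was not called, at -0.33 ± 0.16 (edgeR adjusted p = 0.104). In this comparison 59.2% of all miRNAs were called, 25.9% higher and 33.3% lower, against 3 members higher and 1 lower.

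In the induced line against wild type 38.9% of all miRNAs were called, 19.2% higher and 19.8% lower, and 3 members were higher and 2 lower. The 185 calls behind that share fell to 102 or 105 without wild type A or B and to 105 or 75 without induced A or B. miR-181c-5p stayed at -2.54 ± 0.18 (edgeR adjusted p = 2.62e-05) and miR-181c-3p at 1.17 ± 0.18 (edgeR adjusted p = 0.00118). miR-181a-5p was higher by 2.75 ± 0.77 (edgeR adjusted p = 0.0192), which did not pass when wild type A (edgeR adjusted p = 0.112) or induced B (0.0562) was left out or after thinning (0.123). miR-181b-5p was higher by 3.32 ± 0.75 (edgeR adjusted p = 0.00684), which did not pass when wild type B was left out (edgeR adjusted p = 0.0544). miR-181d-5p was lower by 0.48 ± 0.16 (edgeR adjusted p = 0.0388). With 1 library left out it did not pass in 6 cases, with an edgeR adjusted p of 0.105 to 0.417: wild type A (0.359) or B (0.105), uninduced A (0.139) or B (0.143) and induced A (0.417) or B (0.405). It was lost as well with no filter on low counts (0.159), after thinning (0.192) and without the 2 shallowest libraries (0.147).

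Doxycycline, which induces AGO1 in cells without AGO2, was compared with no doxycycline in the same line. Neither arm of miR-181c was called. miR-181c-5p changed by -0.01 ± 0.18 (95% interval -0.41 to 0.38; edgeR adjusted p = 0.968) and miR-181c-3p by 0.14 ± 0.18 (-0.26 to 0.55; edgeR adjusted p = 0.586). The arm ratio changed by -0.16 ± 0.22 (-0.64 to 0.33; edgeR adjusted p = 0.691), where the uninduced line had differed from wild type by -3.56. miR-181d-5p changed by -0.15 ± 0.16 (-0.52 to 0.21; edgeR adjusted p = 0.509).

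Arm balance did move in other hairpins with doxycycline. There 8 of 135 hairpins, or 5.93%, were called by edgeR, 3.70% towards the 3p arm, and miR-181c was not one of them. That count moved with the libraries in the fit: it was 0 without induced A or without induced B, 4 and 2 without uninduced A and B, 13 without wild type B, and 23 and 24 without knockout 1 and 2. Of the 8, 6 (75.0% of the 8 and 10.9% of the 55 called in the knockout) were also called between knockout and wild type, where 40.7% of all 135 were called. That comparison uses other libraries, but both come from the same fit, and the AGO1 line was made from knockout line 1. All 6 went in the opposite direction in the knockout. The hairpin miR-19a, with 5p shares of 17.6 and 25.6% in uninduced (A, B) and 6.64 and 5.60% in induced (A, B), is an example (-1.96 ± 0.41, edgeR adjusted p = 0.00903), where wild type had 4.07 and 3.81%.

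miR-181b-5p was the 1 member called with doxycycline, lower by 1.63 ± 0.50 on the log2 scale, or 3.09-fold (edgeR adjusted p = 0.0352), where 28.8% of all miRNAs were called, 21.1% higher and 7.79% lower (100 and 37, but 83 and 64 with library totals in place of TMM factors). The 137 calls in all were 57 or 75 without uninduced A or B and 78 or 69 without induced A or B. The share of all miRNAs without overlap between these groups was not counted, so a lack of overlap sets no member apart. Like the uncalled miR-181a-5p and miR-181d-5p, miR-181b-5p was lower in both induced libraries than in both uninduced ones. It did not pass (adjusted p in brackets) after leaving out wild type A (0.0622) or B (0.0546), uninduced A (0.212) or B (0.0566) or induced B (0.243), with DESeq2 (0.0743) and after thinning (0.294). miR-181a-5p changed by -0.76 ± 0.66 (edgeR adjusted p = 0.410). It was called lower without knockout 1 (edgeR adjusted p = 0.0333), without knockout 2 (0.0258) or with only the 2 groups in the fit (0.00691). Beside these values, the share of blood miRNAs was 0.652 to 0.720% in uninduced and 0.336 to 0.357% in induced libraries; its part in the result was not tested.

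**Figure D4:**
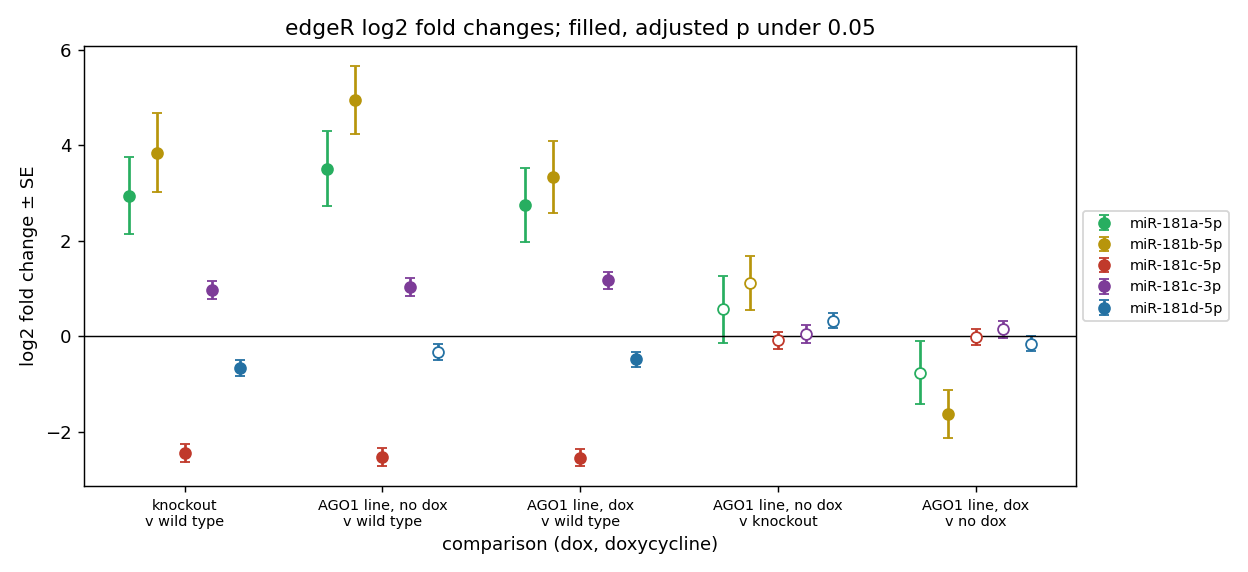
edgeR log2 fold changes with SE for the 5 members in 5 comparisons; filled points have an adjusted p under 0.05. Against wild type, miR-181c-5p is near -2.5 and miR-181c-3p near 1 in all 3 groups without AGO2, and both are near 0 in the comparisons among those groups.

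The uninduced line against the knockout compares cells that both lack AGO2 and are not induced. No member was called, and edgeR called 0 of 475 miRNAs (0.00%), with 72 at an unadjusted p under 0.05 and 8 called by DESeq2. miR-181c-5p changed by -0.09 ± 0.18 (95% interval -0.49 to 0.31; edgeR adjusted p = 0.869) and miR-181c-3p by 0.05 ± 0.18 (-0.35 to 0.46; edgeR adjusted p = 0.944). The arm ratio of miR-181c changed by -0.14 ± 0.23 (-0.64 to 0.37; edgeR adjusted p = 0.966), and 1 of 135 hairpins (0.741%), miR-433, was called, towards the 3p arm. miR-181d-5p stood at 0.33 ± 0.16 (edgeR adjusted p = 0.377), miR-181a-5p at 0.56 ± 0.70 (edgeR adjusted p = 0.717) and miR-181b-5p at 1.11 ± 0.57 (edgeR adjusted p = 0.377). Without knockout 1, which leaves line 2 as the knockout, miR-181a-5p was higher in the uninduced line by 4.03 (edgeR adjusted p = 3.23e-06) and miR-181b-5p by 3.05 (edgeR adjusted p = 0.00731); the lone library was then assumed to vary like the other groups.

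The family's 5p reads together, which carry 1 seed, were fewer without AGO2. The 4 rows summed to 6230 and 5995 CPM in wild type (A, B), 2692 and 2555 CPM in the knockout (lines 1, 2), 3233 and 3161 CPM in uninduced (A, B), and 2860.2 and 2789 CPM in induced (A, B). In CPM on library totals, without TMM factors, the sums were 5530 and 5974 in wild type and 2505 to 3296 in the other libraries. Wild type did not overlap with them on either scale.

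The make-up of that pool also differed. miR-181c-5p was 50.1 ± 0.452% of the family's 5p reads in wild type, 21.6 ± 2.81% in the knockout, 16.7 ± 1.14% in the uninduced and 18.7 ± 1.05% in the induced line (SD, n = 2). miR-181d-5p took 49.7 ± 0.620%, 73.3 ± 3.19%, 75.6 ± 0.793% and 76.9 ± 0.776% in the same order. miR-181a-5p was 0.114 and 0.345% in wild type (A, B), 7.14 and 0.394% in the knockout (lines 1, 2), and 3.32 to 5.31% in the AGO1 line.

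**Figure D5:**
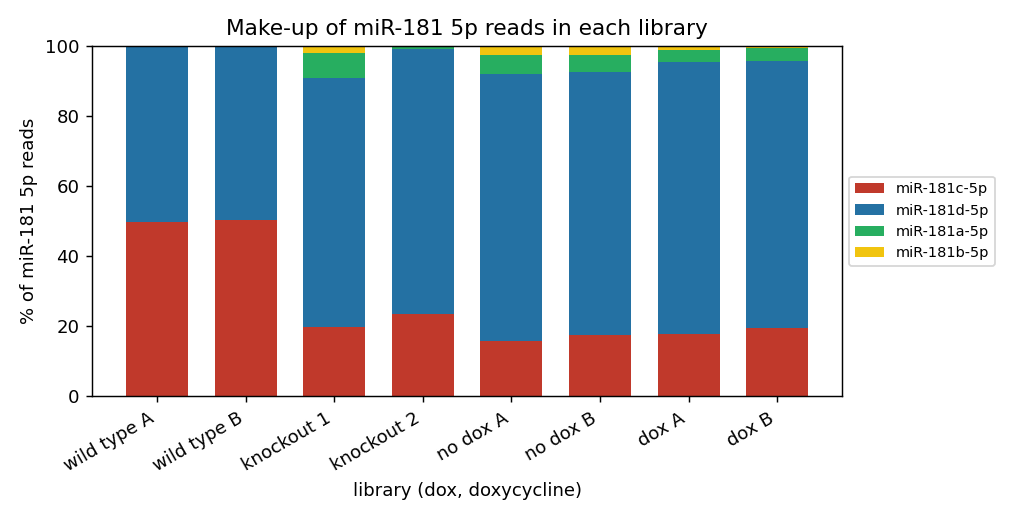
Make-up of the 5p reads of the miR-181 family in each library as stacked percentages. miR-181c-5p and miR-181d-5p take about equal parts in wild type, miR-181d-5p takes 71.1 to 77.5% in the other libraries, and miR-181a-5p and miR-181b-5p are visible in knockout line 1 and the AGO1 line.

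The other 5 arms of the family had few or no reads and were not tested. miR-181a-1-3p had 22 counts over all libraries, with 1 and 0 in wild type (A, B), 3 and 1 in the knockout (lines 1, 2), 8 and 1 in uninduced (A, B), and 6 and 2 in induced (A, B). miR-181b-2-3p had 1 count in all, and miR-181a-2-3p and miR-181b-1-3p had 0, which allows up to 2.57 to 15.1 CPM, depending on the library, for 3 counts. miR-181a-1-3p is 2 edits from both miR-181a-2-3p and miR-181c-3p, so the source of its few counts is uncertain.

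Over all 8 libraries miR-181c-3p ranked 40 among 1915 miRNAs by mean level (2650 CPM), miR-181d-5p ranked 42 (2387 CPM), miR-181c-5p 71 (1171 CPM), miR-181a-5p 230 (94.5 CPM) and miR-181b-5p 327 (36.7 CPM). Rows most like each member were sought by the root mean square difference of log2(CPM + 1) profiles over the 8 libraries, each centred on its mean, among 380 miRNAs with a mean of at least 20 CPM. For miR-181c-5p they were miR-532-5p (0.281), miR-30a-5p (0.299) and miR-106b-3p (0.358), where the median of the 380 was 1.21. For miR-181c-3p they were miR-130b-5p (0.153), miR-193b-3p (0.181) and miR-485-5p (0.198; median 0.819), and for miR-181d-5p they were miR-182-5p (0.111), miR-194-5p (0.128) and miR-126a-3p (0.137; median 0.720). miR-181a-5p was nearest to miR-871-3p (0.676), miR-205-5p (0.756) and miR-205-3p (0.805; median 1.88), and miR-181b-5p to miR-205-3p (0.455), miR-205-5p (0.550) and miR-302d-3p (0.645; median 1.89). The profile of miR-205-5p had group means of 356 CPM in wild type, 2361 CPM in the knockout, 3293 CPM in the uninduced and 1892 CPM in the induced line.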

How the data were processed

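Small RNA of 8 mouse embryonic stem cell libraries was sequenced. The deposited table holds raw counts per mature miRNA, and the authors' normalization was none. The submitters' processing notes name Bowtie, with no version, and mm10; the handling of adapters and of reads with several matches is not stated there. A second header line repeats 1 wild type name, and the first line was used. Of 1915 miRNAs 475 passed edgeR's filterByExpr (99.9% of counts). edgeR 4.0.16 (R 4.3.3) fitted 4 groups with TMM factors (0.881 to 1.22), leaving 4 residual degrees of freedom. Tests are 2-sided quasi-likelihood F tests. The approximate SE was taken as |log2 fold change| over the root of F. For the arm ratio each library gave a 5p and a 3p column, and the model held a library effect and the interaction of arm and group (135 hairpins). DESeq2 1.42.0 was an alternative. Both fits were tested on simulated counts, with changes put into the knockout and the spread of the abundance fit. For abundance, 44 of 94 2-fold and 89 of 97 4-fold changes were called, with 4 false calls among 263 unchanged miRNAs. For the arm ratio, 18 of 35 4-fold changes were called, with 0 false calls among 92 unchanged hairpins. True changes can thus go uncalled. The simulated spread (common coefficient of variation 0.244) was larger than that of the real arm ratio fit (0.133). The simulated arm ratio numbers therefore do not give the recovery of the arm test used. Replicates differed by more than sampling noise (chi-square per degree of freedom 12.4 to 44.2). Members, lists and tests were chosen with earlier results of these data known. The 5 members were named in all comparisons, other hairpins as the 3 largest rises and falls in the knockout among calls with both arms at 20 CPM or more, and similar rows as the 3 nearest profiles. Sequences are RefSeq's (GRCm38.p6), matched by name for all 10 family rows.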

Additional observations from a re-analysis of the deposited data

How the results depend on the processing

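Leaving out each library in turn gave arm ratio changes of miR-181c of -3.60 to -3.22 in the knockout, -3.74 to -3.35 in the uninduced and -3.78 to -3.64 in the induced line against wild type, all called. The same ratio, never called, ranged from -0.34 to 0.070 in uninduced against knockout and from -0.36 to 0.029 with doxycycline, and was 0.028 with doxycycline without the 2 shallowest libraries. Counts of called miRNAs over libraries left out ranged from 195 to 274 in the knockout, 193 to 333 in the uninduced line and 75 to 258 in the induced line against wild type (185 in full; 102 without wild type A, 105 without wild type B, 105 without induced A, 75 without induced B). They ranged from 57 to 200 with doxycycline (137 in full; 57 and 75 without uninduced A and B, 78 and 69 without induced A and B) and from 0 to 61 in uninduced against knockout (61 without knockout 1, 33 without knockout 2). Thinned to the smallest library, the counts in these comparisons were 163 in the knockout, 173 in the uninduced and 102 in the induced line against wild type, and 67 with doxycycline; fewer reads are part of that setting. Uninduced against knockout gave 2 without TMM factors, 8 with DESeq2, 14 without a filter and 25 without the 2 shallowest libraries, a setting chosen after the data were seen; the cause was not tested. Uncalled member values near 0 that changed sign (log2) were miR-181c-3p without TMM factors, at -0.13 in uninduced against knockout and -0.061 with doxycycline, miR-181c-5p with doxycycline at 0.076 without a filter, 0.018 at 20 CPM or more and 0.073 without the 2 shallowest libraries, and miR-181a-5p in uninduced against knockout at -0.19 without them. Leave-one-out ranges that cross 0 were -0.51 to 3.93 for miR-181a-5p in the knockout; -0.23 to 4.03 for miR-181a-5p, -0.19 to 0.029 for miR-181c-5p and -0.26 to 0.35 for miR-181c-3p in uninduced against knockout; and -0.12 to 0.078 for miR-181c-5p, -0.15 to 0.42 for miR-181c-3p and -0.34 to 0.0038 for miR-181d-5p with doxycycline. Libraries with 1 letter are not shown to be paired: their deviations from group means correlated at 0.05, -0.0072 and 0.20. With the letters as a replicate block and without the knockout lines, the arm ratio of miR-181c changed by -3.55 in the uninduced and -3.71 in the induced line against wild type and by -0.16 with doxycycline, and 321, 250 and 192 miRNAs were called; miR-181d-5p was then called lower in the uninduced line (-0.32, edgeR adjusted p = 0.0361), and hairpins called with doxycycline rose from 8 to 25. Depth limits miR-181a-5p and miR-181b-5p most, where 1 count is 5.03 CPM in knockout 2.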
